A study of Mus musculus with 24 samples.

Results

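The vascular miRNAs miR-126a, miR-143 and miR-145a were followed in mouse liver through the mature miRNAs cut from both arms of their hairpins: mmu-miR-126a-3p, mmu-miR-126a-5p, mmu-miR-143-3p, mmu-miR-143-5p, mmu-miR-145a-5p and mmu-miR-145a-3p. They were taken by name from a table of read counts for 1908 mature miRNAs, and all 6 were found. Small RNA had been sequenced from 24 liver samples of C57Bl/6J mice, 8 in each of 3 groups. The AM132 and AM608 groups were mice made obese by a high fat diet for 11 weeks and then given an intravenous oligonucleotide protected by locked nucleic acid, at 3.3 mg/kg on 3 days in a row, with death 7 days after treatment. AM132 is a 16-mer complementary to mature miR-132. AM608 is a 15-mer complementary to the primate miRNA miR-608, used as a control without predicted mouse targets. The RCD group was lean, age-matched mice on a regular chow diet, for which no injection is recorded; the labels give neither sex nor age. All groups carried the same strain background and no other allele is recorded. Because the 3 groups hold neither an obese liver without oligonucleotide nor a lean liver with one, diet and injection cannot be told apart in any comparison with RCD.

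Each hairpin yields a product from its 5′ arm and one from its 3′ arm, and in most miRNAs one of them is kept by Argonaute while the other is largely lost. miR-126a is made in endothelial cells from an intron of Egfl7, which encodes a protein secreted by the vessel wall. Its 3p arm is known to sustain the response to vascular endothelial growth factor by repressing Spred1 and Pik3r2, and its 5p arm is known to repress Dlk1 in endothelium. miR-143 and miR-145a are transcribed together, mainly in smooth muscle and other contractile or mesenchymal cells, and are known for keeping smooth muscle in its contractile state; Klf4 and Klf5 are known targets of miR-145, and Elk1 of miR-143. In liver, such cells are the endothelium of sinusoids and larger vessels, the muscle of vessel walls, and the stellate cells and fibroblasts.

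The RefSeq table of mature miRNAs (GRCm38.p6) held a sequence for 1 of the 6 arms, the abundant miR-126a-3p. It is shown with its seed, bases 2 to 8, in capitals. Beside it stand the arms of miR-126b, which is annotated on the opposite strand of the same locus, because reads of one strand must be kept from the other for a count of miR-126a to be right.
mmu-miR-126a-3p: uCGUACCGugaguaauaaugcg
mmu-miR-126b-5p: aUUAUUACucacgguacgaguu
mmu-miR-126b-3p: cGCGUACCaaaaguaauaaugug
miR-126a-3p lies at chr2:26591402-26591423 on the plus strand, and miR-126b-5p overlaps it by 19 bases on the minus strand as its exact reverse complement. No other mature miRNA of that table has the seed of miR-126a-3p. The counts of the strands were far apart: miR-126a-3p had between 182198 and 454286 counts in a library, whereas miR-126b-5p had 0 to 13 and miR-126b-3p 1 to 19. The Mir126a hairpin (chr2:26591357-26591429, plus strand, 73 bases) is shown with its 3p arm in capitals.
Mir126a hairpin: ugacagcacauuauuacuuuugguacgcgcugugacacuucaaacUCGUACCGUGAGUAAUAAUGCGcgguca
In the GENCODE M21 annotation of GRCm38, Egfl7 spans chr2:26580014-26593120 on the plus strand and has 19 transcripts. The hairpin lies in an intron of 8 of them, intron 7 in Egfl7-201, and inside an exon of 1, Egfl7-206. Mir143 and Mir145a both lie within the long noncoding RNA Carmn in the RefSeq gene table. These coordinates belong to the reference used here, as no source at hand names the genome build of the counts.

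Total miRNA counts ran from 5689143 to 8734721 per library. The labels tie no library to an animal of its own, so p-values measure only the spread between these samples. The target of AM132, miR-132-3p, had 0 counts in all 8 AM132 libraries, which allows a share of up to 5.42e-06% of the group's counts (3 counts, counting error only), against 92 to 341 counts in AM608 and 69 to 339 in RCD; the opposite arm, miR-132-5p, kept 117 to 201 counts in AM132. The liver label was met by 6 of 6 listed hepatocyte miRNAs, which summed to between 263300 and 634400 CPM in a library (the usual depth-scaled count, here with TMM factors over the 421 tested miRNAs). RCD library 3 stood apart. It held the lowest hepatocyte sum, 263300 CPM, against 353000 to 542400 in the other RCD libraries. Its listed endothelial miRNAs besides miR-126a summed to 755.3 CPM, against 1112 to 1460 in the others. Its biliary miRNAs summed to 425.3 CPM, against 761.6 to 1832, and its erythroid miRNAs to 1773 CPM, against 297.5 to 1078. Its neuronal miRNAs summed to 2853 CPM, against 353 to 546.2, and its striated muscle miRNAs to 333.9 CPM. RCD library 4 was next for striated muscle, at 153.6 CPM. RCD library 8 had the highest miR-126a-5p and the lowest miR-126a-3p of all 24 libraries. Results that rest on these libraries are given with and without them.

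The 6 arms covered a wide range of levels, and their order by mean was the same in the 3 groups: miR-126a-3p, miR-143-3p, miR-126a-5p, miR-145a-3p, miR-145a-5p and miR-143-5p. A read spans a whole mature miRNA, so counts need no division by length, but adapter ligation favours some ends over others and the order across sequences carries that error. miR-126a-3p averaged 43470 ± 2563 CPM in AM608 (SD, n = 8), rank 6 of the tested miRNAs, and took 3.69% of all counts in RCD, 4.67% in AM608 and 4.14% in AM132. miR-143-3p was the next arm, at 9030 ± 1165 CPM in AM608 and rank 20. In AM608 and in AM132 no arm overlapped its neighbour in this order in any library. In RCD miR-126a-5p (452.7 to 1974 CPM) overlapped miR-145a-3p (298.7 to 648.5), and miR-145a-3p overlapped miR-145a-5p (242.5 to 603.6). For miR-145a the 3p product exceeded the 5p product on average, whereas the 5p product is the arm whose targets are better known. miR-143-5p, with 79 to 347 counts in a library, had the fewest counts and so the largest counting error of the 6.

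The lean livers varied most. The coefficient of variation in RCD was 15.2% for miR-126a-3p, 20.5% for miR-145a-3p, 31.6% for miR-143-5p, 32% for miR-145a-5p, 39.7% for miR-143-3p and 51.9% for miR-126a-5p. In AM608 it lay between 5.9% and 18.6% over the 6 arms, and in AM132 between 8.78% and 14.6%. Much of the RCD spread sat in single libraries, since leaving out library 3 lowered the SD of miR-143-3p from 4248 to 1020 CPM. The plot of levels by library shows those single values.

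**Figure D1:**
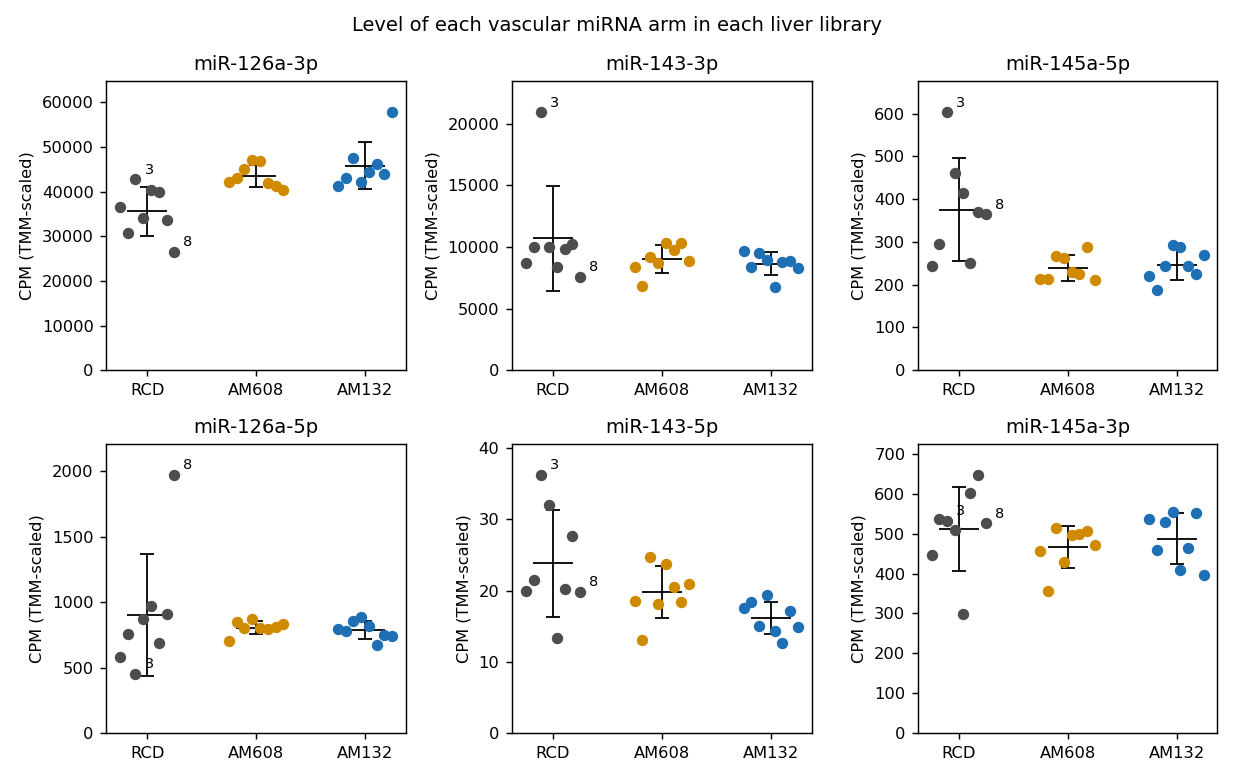
Each point is 1 liver library (24 in all, 8 per group); the vertical axis is the TMM-scaled CPM of the arm on a linear scale from 0, and the bars give the mean and SD. RCD library 3 is the highest point for miR-143-3p (20960), miR-143-5p (36.28) and miR-145a-5p (603.6), and RCD library 8 for miR-126a-5p (1974).

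AM132 was compared with AM608 to ask what the oligonucleotide against miR-132 changed beyond the control oligonucleotide in the obese liver. None of the 6 vascular arms passed the test. miR-126a-3p ran from 41260 to 57810 CPM in AM132 (median 44200) and from 40410 to 47050 in AM608 (median 42600). The ranges overlapped, with 2 AM132 libraries above every AM608 library and 1 AM608 library below every AM132 library. The log2 fold change was 0.08 (SE 0.08, approximate 95% interval -0.09 to 0.24), with an adjusted p of 0.668 by edgeR's quasi-likelihood test. miR-143-3p ran from 6727 to 9653 CPM in AM132 (median 8838) and from 6797 to 10330 in AM608 (median 9022), and its interval was -0.36 to 0.23. miR-145a-5p ran from 186.8 to 292.6 CPM in AM132 (median 243.5) and from 211.8 to 288.2 in AM608 (median 227.6), with an interval of -0.25 to 0.33. The ranges overlapped for both, with 3 AM608 libraries above every AM132 library and 1 AM132 library below every AM608 library for miR-143-3p, and 1 AM132 library above and 1 below every AM608 library for miR-145a-5p. The intervals for the opposite arms were -0.40 to 0.33 for miR-126a-5p and -0.17 to 0.30 for miR-145a-3p. The least abundant arm, miR-143-5p, gave the largest difference of the 6, at 16.17 ± 2.27 CPM in AM132 against 19.74 ± 3.66 in AM608 (SD, n = 8 each), and the log2 fold change was -0.29 (SE 0.17) with an edgeR adjusted p of 0.316. At an unadjusted p under 0.05 edgeR called 0 of 6 as well, the smallest unadjusted p being 0.0961, and DESeq2 and limma voom called 0 of 6. Over all 421 tested miRNAs 12.4% were called in this comparison, 4.04% higher and 8.31% lower, and 6.65% had groups that did not overlap, which none of the 6 arms had. The median log2 fold change of the 6 arms was 0.00 and that of all tested miRNAs 0.05. Scaled to library totals instead, miR-126a-3p, miR-145a-5p and miR-145a-3p changed sign, to -0.17, -0.21 and -0.19, without being called.

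AM608 was compared with RCD to set the obese liver, with the control oligonucleotide, against the lean liver. Of the 6 arms, miR-126a-3p rose, miR-145a-5p fell and the other 4 did not pass the test, a share near that of all tested miRNAs (28.7% called). miR-126a-3p ran from 26560 to 42780 CPM in RCD (median 35330) and from 40410 to 47050 in AM608 (median 42600). Of the lean livers, 6 of 8 lay below every AM608 liver, 4 AM608 livers lay above every lean one, and the groups overlapped. Its mean rose 1.22-fold, from 35570 ± 5421 to 43470 ± 2563 CPM (SD, n = 8 each), and the log2 fold change was 0.29 (SE 0.08, interval 0.12 to 0.45) with an edgeR adjusted p of 0.0104. Without RCD library 3 the change was 0.33 (edgeR adjusted p = 0.00203). In a fit of the AM608 and RCD libraries alone it was 0.25, with an edgeR adjusted p of 0.0502, and was not called.

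miR-145a-5p, the arm known for repressing Klf4 and Klf5 in smooth muscle, ran from 242.5 to 603.6 CPM in RCD (median 366.6) and from 211.8 to 288.2 in AM608 (median 227.6). Of the lean livers, 6 of 8 lay above every AM608 liver, and 5 AM608 livers lay below every lean one. The mean was 375.2 ± 120 CPM in RCD and 239.1 ± 29.5 in AM608 (SD, n = 8 each). It fell by 0.65 on the log2 scale (SE 0.15, interval -0.94 to -0.36), to 0.637 of the lean level, with an edgeR adjusted p of 0.00145. Without RCD library 3 it fell by 0.52 (edgeR adjusted p = 0.0024), and without RCD libraries 3 and 4 by 0.50 (0.00301).

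The other arms did not pass the test. miR-145a-3p, from the same hairpin as miR-145a-5p, ran from 298.7 to 648.5 CPM in RCD (median 529.7) and from 355.8 to 514.6 in AM608 (median 484.9), a log2 fold change of -0.14 (SE 0.12, interval -0.37 to 0.09, edgeR adjusted p = 0.411). miR-143-3p, the chief product of the neighbouring hairpin, ran from 7591 to 20960 CPM in RCD (median 9911) and from 6797 to 10330 in AM608 (median 9022). Its lean range was set by library 3: without it the RCD mean was 9248 ± 1020 CPM (SD, n = 7) in place of 10710 ± 4248 (SD, n = 8). Its log2 fold change was -0.25 (SE 0.15, edgeR adjusted p = 0.233) with that library and -0.04 (0.757) without it. miR-143-5p gave -0.27 (SE 0.17, edgeR adjusted p = 0.227) and miR-126a-5p -0.16 (SE 0.19, edgeR adjusted p = 0.552). miR-126a-5p reached 1974 CPM in RCD library 8 and 452.7 in library 3, so its lean range enclosed the whole AM608 range of 700.9 to 869.5. Without RCD library 8 its change was 0.13 (edgeR adjusted p = 0.459). Thus 2 of 6 arms were called, 1 higher and 1 lower, where of the 421 tested miRNAs 13.5% were higher and 15.2% lower. None of the 6 arms had groups without overlap, against 9.26% of tested miRNAs. The median log2 fold change was -0.20 over the 6 arms and -0.03 over all tested miRNAs. In whole liver, fewer cells of a type and less of the miRNA per cell cannot be told apart.

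AM132 was compared with RCD to place the liver treated against miR-132 beside the lean liver. This comparison shares its RCD libraries with the last one, so the values are given side by side and are not a second measurement of the lean level. miR-126a-3p was higher than in RCD by 0.36 on the log2 scale (SE 0.08, interval 0.20 to 0.53, 1.29-fold, edgeR adjusted p = 0.00136). Its AM132 range of 41260 to 57810 CPM lay above 7 of the 8 lean livers and overlapped the lean range through RCD library 3 alone. With library totals the change was 0.17 with an edgeR adjusted p of 0.204, and was not called. miR-145a-5p fell by 0.61 (SE 0.15, interval -0.90 to -0.32, edgeR adjusted p = 0.00234), from 375.2 ± 120 to 246.4 ± 35.9 CPM (SD, n = 8 each), and 6 of 8 lean livers lay above every AM132 liver. Without RCD libraries 3 and 4 it fell by 0.43 (edgeR adjusted p = 0.0101).

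miR-143-5p was called in AM132 against RCD as well. It ran from 13.27 to 36.28 CPM in RCD (median 20.87) and from 12.67 to 19.32 in AM132 (median 16.1), and 7 of 8 lean livers lay above every AM132 liver. It fell by 0.56 on the log2 scale (SE 0.17, interval -0.89 to -0.24), to 0.677 of the lean level, with an edgeR adjusted p of 0.0108. Without RCD libraries 3 and 4 it fell by 0.38, with an edgeR adjusted p of 0.0632. The abundant arm of the same hairpin, miR-143-3p, was 8650 ± 908 CPM in AM132 (SD, n = 8) and gave -0.31 (SE 0.15, edgeR adjusted p = 0.114); without RCD library 3 it gave -0.13 (0.25), and with library totals -0.55 (0.0455). miR-126a-5p (-0.19, SE 0.19, edgeR adjusted p = 0.43; 0.06 without RCD library 8) and miR-145a-3p (-0.07, SE 0.12, 0.639) did not pass. Of the 6 arms 3 were called, 1 higher and 2 lower, where 34.2% of tested miRNAs were called, 15.4% higher and 18.8% lower. Again 0 of 6 had groups without overlap, against 8.79% of tested miRNAs, and the medians were -0.25 for the arms and 0.03 for all tested miRNAs.

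**Figure D2:**
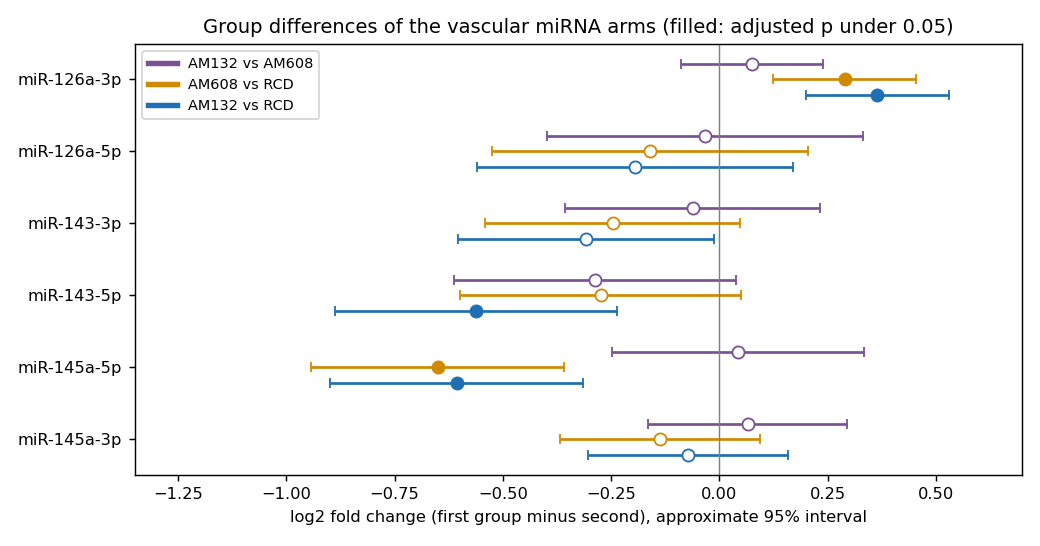
Log2 fold changes (horizontal axis, first group minus second) of the 6 arms in the 3 comparisons, each with its approximate 95% interval; filled points have an edgeR adjusted p under 0.05. miR-126a-3p lies to the right of 0 in both comparisons with RCD (0.29 and 0.36) and miR-145a-5p to the left (-0.65 and -0.61), while the 6 intervals of AM132 against AM608 include 0.

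The levels of 2 arms in the same library can be set against each other without any scaling between libraries, as the ratio of their counts. Each of the 5 ratios chosen was compared between groups in the 3 comparisons. The test was an exact permutation test, two-sided, over all 12870 ways to assign 16 libraries to 2 groups, and p-values were adjusted over the 15 tests. The ratio of miR-126a-3p to miR-143-3p, an endothelial against a smooth muscle product, differed between obese and lean livers. There were 2.04 to 4.83 reads of miR-126a-3p for each read of miR-143-3p in RCD (median 3.46), 4 to 6.35 in AM608 (median 4.73) and 4.27 to 6.95 in AM132 (median 5.07). The ranges of the obese groups overlapped the top of the lean range, and RCD library 3 held the lowest ratio. On the log2 scale the ratio was 0.49 higher in AM608 than in RCD (2.28 ± 0.21 against 1.79 ± 0.37, SD, n = 8 each; exact permutation p = 0.00326, adjusted 0.0245) and 0.62 higher in AM132 than in RCD (exact permutation p = 0.000622, adjusted 0.00932). Without RCD library 3 the differences were 0.38 (exact permutation test, adjusted p = 0.0455) and 0.51 (0.0186), and without RCD libraries 3 and 4 they were 0.36 (0.0924) and 0.49 (0.035). The AM608 difference was 0.43 (exact permutation test, adjusted p = 0.0571) without AM608 library 2 and 0.47 (0.0536) without AM608 library 4. AM132 and AM608 differed by 0.13 (exact permutation test, adjusted p = 0.372).

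Within a hairpin, the share of each arm tells whether both products moved together. For miR-145a the 3p arm made up 41.87 to 70.61% of both arms in RCD (median 61.43%), 62.11 to 69.06% in AM608 (median 66.92%) and 58.66 to 71.1% in AM132 (median 67.1%). The lean livers reached lower, but the groups overlapped. The log2 ratio of 3p to 5p was 0.48 higher in AM608 than in RCD (exact permutation p = 0.0462, adjusted 0.123) and 0.51 higher in AM132 than in RCD (exact permutation p = 0.0493, adjusted 0.123), so neither difference passed the adjusted threshold. Of the 16 omissions of 1 library in each comparison, 15 gave no call. Without RCD library 6 both differences were called, at 0.60 (exact permutation test, adjusted p = 0.028) and 0.62 (0.0476). Without RCD library 3 they were 0.39 (exact permutation test, adjusted p = 0.136) and 0.41 (0.144), and neither was called.

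For miR-126a the 5p arm was 1.05 to 6.92% of both arms in RCD (median 2.38%), 1.64 to 2.01% in AM608 (median 1.84%) and 1.27 to 2.07% in AM132 (median 1.77%). The lowest and the highest share both came from lean livers, libraries 3 and 8, and no comparison passed (exact permutation test, adjusted p = 0.267 to 0.395). Against RCD the log2 ratio of 5p to 3p differed by -0.33 in AM608 and by -0.44 in AM132. Without RCD library 3 the differences were -0.496 (exact permutation test, adjusted p = 0.0746) and -0.602 (0.0565). Without RCD libraries 3 and 8 they were -0.245 (exact permutation test, adjusted p = 0.163) and -0.351 (0.134). The 5p arm of miR-143 was 0.158 to 0.319% of both arms in RCD, 0.177 to 0.268% in AM608 and 0.144 to 0.219% in AM132. Its log2 ratio to miR-143-3p was lower by 0.22 in AM132 than in AM608 by an exact permutation test with p = 0.0491, adjusted 0.123. miR-143-3p and miR-145a-5p, made from one transcript, stood at a median of 30.9 to 1 in RCD, 37.4 to 1 in AM608 and 37.5 to 1 in AM132. The log2 difference between AM608 and RCD was 0.41 (exact permutation p = 0.02, adjusted 0.1), and 0.48 (adjusted p = 0.028) without RCD library 6. Without RCD library 3 it was 0.45 (exact permutation test, adjusted p = 0.0565), and 15 of the 16 omissions of 1 library gave no call.

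**Figure D3:**
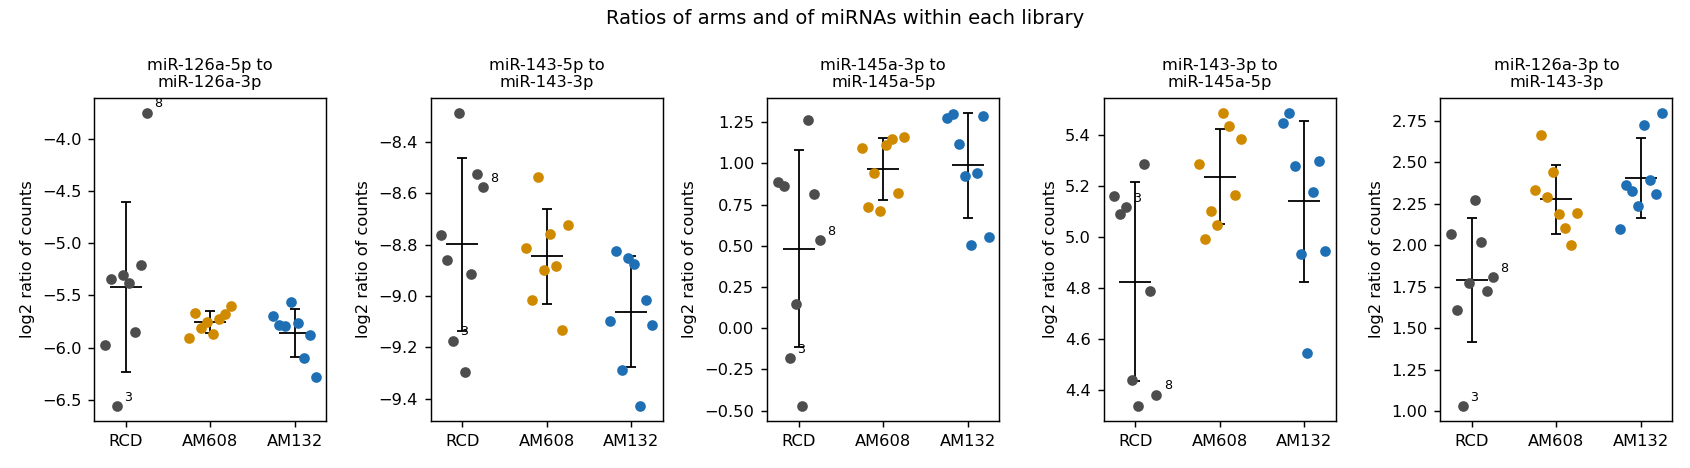
Log2 ratio of counts within each library (vertical axis) for 5 pairs of arms; each point is 1 library, bars give the mean and SD of 8, and the vertical axes do not start at 0. For miR-126a-3p to miR-143-3p the means are 1.79 in RCD, 2.28 in AM608 and 2.40 in AM132, and RCD libraries 3 and 8 hold the lowest and highest values for miR-126a-5p to miR-126a-3p.

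To see whether products of one hairpin or transcript rose and fell together across the 8 livers of a group, correlations of log2 CPM were computed for 6 pairs of arms within each group, 18 relations in all, each tested by permutation over 40320 pairings. The arms of miR-143 in RCD gave a Spearman rho of 0.934 (permutation p = 0.00169, adjusted 0.0304) and a Pearson r of 0.727 (permutation p = 0.034, adjusted 0.204), with an r of 0.82 after leaving out libraries 3 and 8. This was the only relation of the 18 past the adjusted threshold, by rank and not by Pearson's r. In AM608 the same arms gave an r of 0.775 (permutation p = 0.0299, adjusted 0.204) and a rho of 0.527 (permutation p = 0.185, adjusted 0.602), with an r of 0.694 without libraries 2 and 7. In AM132 they gave an r of 0.329 (permutation p = 0.452, adjusted 0.708) and a rho of 0.476 (permutation p = 0.243, adjusted 0.602). Without AM132 libraries 1 and 5 that r was -0.07.

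The arms of miR-126a ran opposite to each other in RCD, with an r of -0.761 (permutation p = 0.0274, adjusted 0.204) and a rho of -0.548 (permutation p = 0.171, adjusted 0.602). This relation rested on libraries 3 and 8, without which r was -0.01. In AM132 and AM608 the r of these arms was -0.324 (permutation p = 0.424) and 0.301 (permutation p = 0.511). Without AM132 libraries 3 and 8 that r was -0.714, and without AM608 libraries 4 and 5 it was 0.01. The arms of miR-145a gave an r of -0.13 in RCD (permutation p = 0.765, adjusted 0.81) and a rho of -0.119 (permutation p = 0.793, adjusted 0.892). In AM132 and AM608 their r was -0.206 (permutation p = 0.624) and 0.428 (permutation p = 0.3). Without RCD libraries 1 and 3 their r was -0.459. Without AM132 libraries 2 and 4 it was -0.904, and without AM608 libraries 3 and 7 it was 0.07. miR-143-3p and miR-145a-5p, which share a primary transcript, gave an r of 0.618 in RCD (permutation p = 0.0977, adjusted 0.44) and a rho of 0.455 (permutation p = 0.26, adjusted 0.602), and an r of 0.08 without libraries 3 and 8. In AM132 the r of that pair was -0.365 (permutation p = 0.377, adjusted 0.708) and its rho -0.238 (permutation p = 0.582, adjusted 0.748). In AM608 its r was 0.493 (permutation p = 0.217, adjusted 0.651) and its rho 0.587 (permutation p = 0.135, adjusted 0.602). Without AM132 libraries 1 and 5 the r of this pair was 0.275, and without AM608 libraries 2 and 7 it was 0.046. The libraries left out lay farthest from the group's median of miR-126a-3p, miR-145a-5p or miR-143-3p. The values of r without them were not tested.

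**Figure D4:**
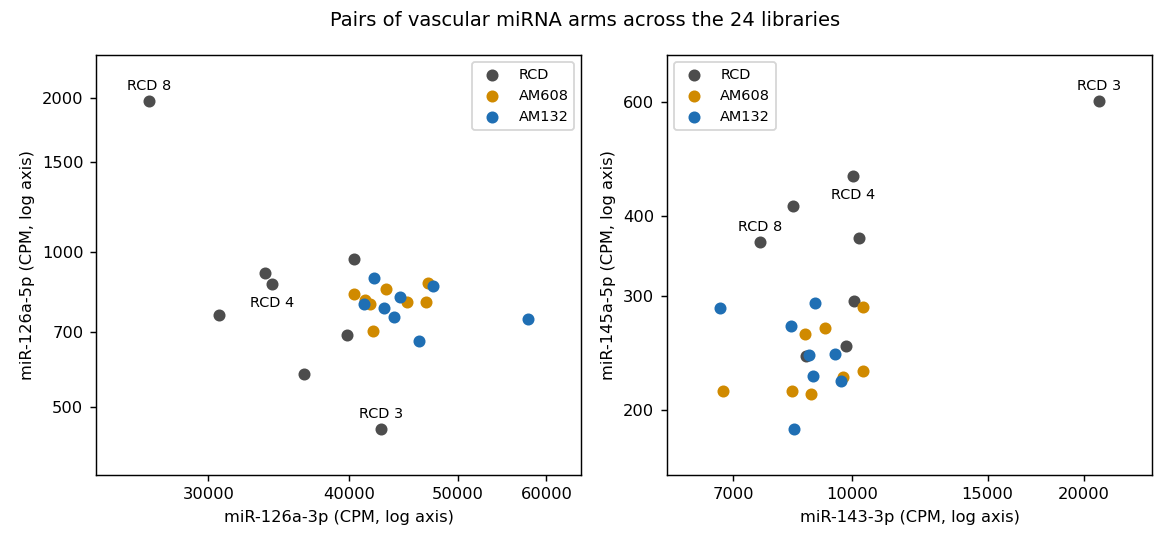
Levels of miR-126a-5p against miR-126a-3p (left) and of miR-145a-5p against miR-143-3p (right) in the 24 libraries, in TMM-scaled CPM on log axes, each point 1 library. RCD library 8 (1974 and 26560 CPM) and RCD library 3 (452.7 and 42780) lie at opposite ends on the left, and RCD library 3 (603.6 and 20960) lies alone at the upper right on the right.

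The miRNAs most like each chief arm were found by the Pearson correlation of log2 CPM after each group's mean was taken off, over all 24 libraries; the points share depth and scaling, so this is a description. For miR-126a-3p they were miR-24-2-5p (r = 0.879), miR-151-3p (0.787) and miR-99a-5p (0.778), and without RCD library 3 the values were 0.86, 0.775 and 0.746 (ranks 1, 3 and 4). For miR-143-3p they were miR-181b-5p (0.896), miR-181a-5p (0.894) and miR-125b-1-3p (0.878), which dropped to 0.7, 0.697 and 0.683 without that library (ranks 5, 6 and 7). For miR-145a-5p they were miR-9-5p (0.741), miR-136-5p (0.74) and miR-434-3p (0.689), which dropped to 0.576, 0.572 and 0.473 (ranks 6, 7 and 20). Without RCD library 3 the miRNAs named for miR-143-3p and miR-145a-5p were thus no longer the 3 most alike. miR-9-5p is an abundant miRNA of neurons, and it ran from 1.65 to 529.7 CPM in RCD, highest in library 3, against at most 8.71 CPM in AM608 and 4.81 in AM132. The likeness of miR-126a-3p thus changed little without RCD library 3, and that of miR-145a-5p to miR-9-5p more. The sequences of miR-24-2-5p and miR-99a-5p, with seeds in capitals, show that neither shares the seed of miR-126a-3p.
mmu-miR-24-2-5p: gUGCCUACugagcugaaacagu
mmu-miR-99a-5p: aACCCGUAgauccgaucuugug

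Other miRNAs known from endothelium were read beside miR-126a-3p, from a list of 8 of which 6 were tested (miR-126b was too low). miR-221-3p and miR-222-3p, which are abundant in endothelium and known to repress Kit, share a seed, as their sequences show. Their hairpins neighbour each other on the X chromosome, so their arms are not independent of each other.
mmu-miR-221-3p: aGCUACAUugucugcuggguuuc
mmu-miR-222-3p: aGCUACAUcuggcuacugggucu
In AM608 against RCD 3 of the 6 rose and 0 fell, all 3 from this pair of hairpins, where 13.5% of tested miRNAs were higher and 15.2% lower. miR-221-3p ran from 522.1 to 1161 CPM in RCD (median 940.5) and from 1077 to 1458 in AM608 (median 1191), and rose by 0.35 (SE 0.11, edgeR adjusted p = 0.0226). miR-222-3p rose by 0.42 (SE 0.12, edgeR adjusted p = 0.00723) and miR-221-5p by 0.36 (SE 0.10, 0.00637). The ranges of miR-221-3p overlapped, and its lowest value was a lean one. In AM132 against RCD, where 15.4% were higher, the same 3 names were called, at 0.38 (edgeR adjusted p = 0.0122), 0.34 (0.0266) and 0.27 (0.0355). The median over the 6 was 0.35 and 0.29 in these comparisons, against -0.03 and 0.03 over all tested miRNAs. The rest of the list was not called in AM608 against RCD. miR-130a-3p gave -0.29 (SE 0.12, edgeR adjusted p = 0.0781), miR-130a-5p -0.65 (SE 0.45, 0.299) and miR-222-5p 0.46 (SE 0.22, 0.135). With DESeq2, and with RLE size factors as the scaling, 3 of the 6 rose and 1 fell, where 16.6% and 16.2% of tested miRNAs were lower.

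The calls on this list were made again without the lean libraries that stood apart. Without RCD library 3, 7 listed miRNAs were tested: 4 rose and 1 fell in AM608 against RCD, and 1 rose in AM132 against RCD, miR-221-3p. Over all tested miRNAs 15.6% were then higher and 15.9% lower in AM608 against RCD. In AM132 against RCD 13.3% were higher, a share near that of the list. Without RCD libraries 3 and 4 none of miR-221-3p, miR-221-5p and miR-222-3p was called, at 0.18 (edgeR adjusted p = 0.158), 0.21 (0.0809) and 0.31 (0.0581) in AM608 against RCD. Of the 7 then tested, 1 was higher, miR-126b-3p, and 1 lower, miR-130a-3p (-0.46, edgeR adjusted p = 0.00243). Over all tested miRNAs 11.4% were then higher and 19.1% lower. In AM132 against RCD 0 of the 7 were called, where 9.79% of tested miRNAs were higher and 16.6% lower. miR-126a-3p itself was called in both comparisons with RCD under the same omission, at 0.27 (edgeR adjusted p = 0.0159) and 0.37 (0.00135). With library totals 0 of 6 were called in AM132 against RCD, where 6.41% of tested miRNAs were then higher. In AM132 against AM608 edgeR, DESeq2 and limma voom called 0 of the 6, and 1 passed an unadjusted p under 0.05 in edgeR, miR-130a-3p (0.29, SE 0.12, edgeR adjusted p = 0.129). With library totals 1 of the 6 was lower there, where 19.7% of tested miRNAs were lower. Without RCD libraries 3 and 4, 1 of 7 was higher, where 6.29% of tested miRNAs were higher.

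Of 10 miRNAs of mesenchymal and stellate cells read beside miR-143 and miR-145a, 9 were tested. In AM132 against AM608, where 8.31% of tested miRNAs were lower, 2 fell and 0 rose, miR-199a-3p and miR-199b-3p. They have the same mature sequence, shown here because reads cannot be assigned to one or the other.
mmu-miR-199a-3p and mmu-miR-199b-3p: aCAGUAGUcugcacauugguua
miR-199a-3p ran from 1222 to 3736 CPM in AM132 (median 2459) and from 2594 to 5237 in AM608 (median 3889), and fell by 0.74 on the log2 scale (SE 0.18, edgeR adjusted p = 0.0045). The groups overlapped. Against RCD, whose range was 2977 to 4049 CPM, it fell by 0.56 in AM132 (SE 0.17, edgeR adjusted p = 0.0155) and gave 0.18 in AM608 (SE 0.17, 0.454). The arms of miR-143 and miR-145a gave no call in AM132 against AM608, as above; whether they differ from miR-199a-3p in this was not tested.

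miR-10b-5p, abundant in fibroblasts and muscle, was called lower than RCD in AM608 (-3.06, SE 0.86, edgeR adjusted p = 0.00866) and in AM132 (-2.95, SE 0.86, 0.00977). RCD ran from 32.21 to 4292 CPM with a median of 108.5, and library 3 alone held the highest value. Without that library the changes were -0.84 (edgeR adjusted p = 0.218) and -0.77 (0.257), and neither was called. Counts of the 9 were 0 rising and 1 falling in AM608 against RCD, and 0 and 3 in AM132 against RCD, where 15.2% and 18.8% of tested miRNAs were lower. With library totals 5 of the 9 fell in AM132 against AM608 and 4 in AM132 against RCD, but falls were then more frequent over all tested miRNAs too, at 19.7% and 24.9%. The medians were -0.23, 0.12 and -0.11 in the 3 comparisons, against 0.05, -0.03 and 0.03 over all tested miRNAs.

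**Figure D5:**
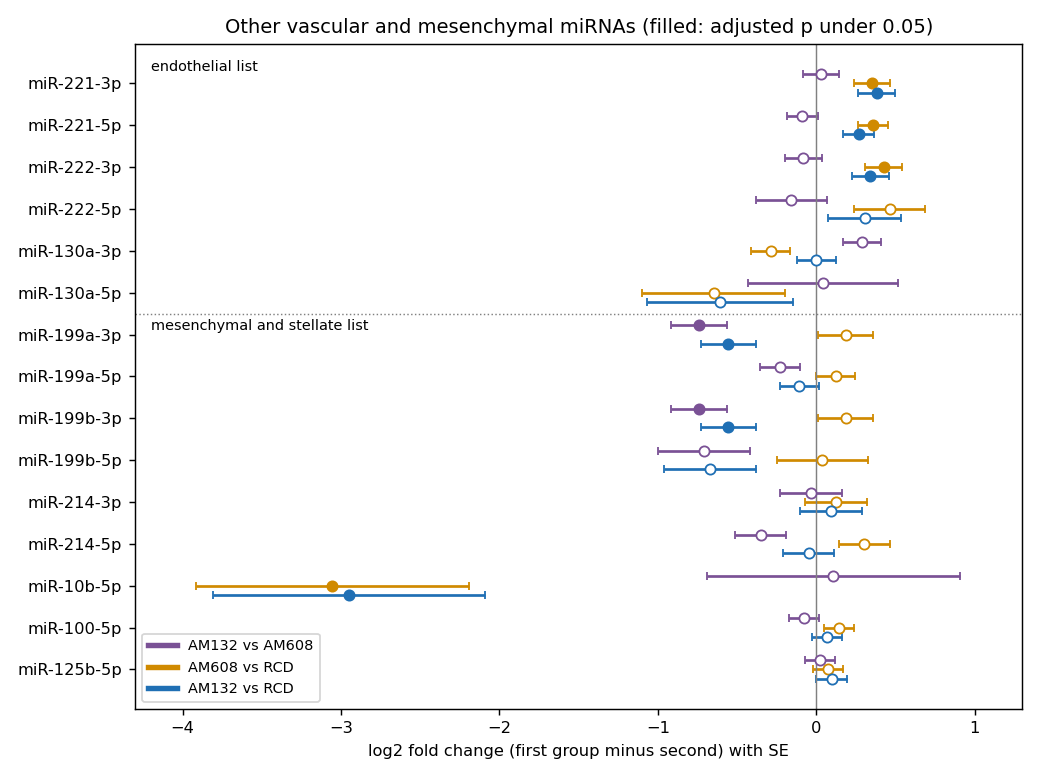
Log2 fold changes with SE (horizontal axis, first group minus second) of the tested endothelial miRNAs (top) and mesenchymal and stellate miRNAs (bottom) in the 3 comparisons; filled points have an edgeR adjusted p under 0.05. miR-221-3p, miR-221-5p and miR-222-3p lie between 0.27 and 0.42 against RCD, and miR-10b-5p lies near -3 with an SE of 0.86, a value held by RCD library 3.

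The summed levels of striated muscle and of neuronal miRNAs were also highest in RCD library 3, where miR-143-3p, miR-143-5p and miR-145a-5p were highest. The 6 listed striated muscle miRNAs, of which 3 were tested, summed to 18.95 to 333.9 CPM in RCD, 10.53 to 39.25 in AM608 and 11.88 to 64.63 in AM132. Most of that sum in RCD library 3 was miR-1a-3p, with 3044 counts. Of the others only miR-133a-3p and miR-133b-3p had their highest count there; miR-206-3p (45 counts) and miR-499-5p (26) had theirs in AM608 libraries, and miR-208b-3p (1) in RCD library 4. Of the untested ones, miR-133b-3p and miR-208b-3p had 0 counts in every AM608 and AM132 library, and miR-133b-3p had at most 3 counts in RCD. Of the tested ones 1, miR-1a-3p, fell against RCD in AM608 (-2.22, edgeR adjusted p = 0.0105) and in AM132 (-1.87, 0.026). Over all tested miRNAs 15.2% and 18.8% were lower in these comparisons. Without RCD library 3 the values of miR-1a-3p were -1.33 (edgeR adjusted p = 0.0558) and -0.99 (0.152).

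The 9 listed neuronal miRNAs, of which 5 were tested, summed to 353 to 2853 CPM in RCD, 509.3 to 623 in AM608 and 419.6 to 540.2 in AM132. Of the 5 tested, 3 fell in each comparison with RCD, where 15.2% (AM608) and 18.8% (AM132) of tested miRNAs were lower. By counts 8 of the 9 were highest in RCD library 3, and miR-219a-5p was highest in RCD library 7 (20 counts). Without RCD library 3, 3 rose and 2 fell in AM608 against RCD, and 0 rose and 2 fell in AM132 against RCD. Over all tested miRNAs 15.6% were then higher and 15.9% lower in AM608 against RCD, and 13.3% and 18% in AM132 against RCD. The untested miR-124-3p, a defining miRNA of neurons, had 81 counts in RCD library 3, at most 1 in an AM608 library and 0 in every AM132 library. The part of other tissue in the levels of miR-143 and miR-145a in RCD library 3 was not tested. The fall of miR-145a-5p was called without that library in both comparisons, as given above.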

How the data were processed

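The authors deposited raw read counts per mature miRNA for 24 liver libraries; this unit, counts, is per the labels' titles and the whole-number values of the table. Per the labels' protocols, 300 ng of miRNeasy-purified RNA (RIN above 8.4) entered each NEBNext small RNA library. Of tools, FastQC is recorded, per the submitters' processing notes. Aligner, genome build and counting rule: not given in the sources used here. Reads of identical or near-identical miRNAs could be assigned either way. The labels mention no molecular identifiers, so PCR copies may be counted. Of 1908 names 584 had no count in any library. The deposited table of transfer RNA fragments was not used here.

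Libraries were grouped by their titles. Over 84 pairs of same-group libraries, chi-square divided by its degrees of freedom was at least 30.2, so none was counted as a duplicate. Counts were tested with edgeR 4.0.16 (R 4.3.3): filterByExpr, TMM factors, robust quasi-likelihood fit with group as the only term over all 24 libraries, Benjamini-Hochberg adjustment over 421 tested miRNAs, threshold 0.05. An SE is the absolute log2 fold change over the square root of F, and the 95% interval is a normal approximation from it. Ratios within a library (0.5 counts added to each count) went into an exact permutation test, two-sided. DESeq2 1.42.0, limma voom 3.58.1, other scalings, filters and omitted libraries were alternatives. The fit was tested on simulated data. The 6 arms are always named, then the 3 miRNAs most correlated with each of miR-126a-3p, miR-143-3p and miR-145a-5p (log2 CPM, prior of 2 counts), then listed vascular and mesenchymal miRNAs that were called; miR-130a-3p, miR-126b, miR-132 and miR-1a-3p were named after their values were seen. The members and lists were chosen with earlier results of these data known. Sequences are from RefSeq (GRCm38.p6).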

Additional observations from a re-analysis of the deposited data

Results flagged for a closer look

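Levels and ratios were screened for single libraries far from the rest of their group, by the gap to the nearest library as a share of the group's range (Dixon's criterion at the 95% level). Of 33 groups of 8 values, 5 held such a library; chance alone sets apart about 1 group in 20. miR-143-3p was 20960 CPM in RCD library 3, with the next RCD library at 10210. miR-126a-5p was 1974 CPM in RCD library 8, with the next at 971.4. miR-126a-3p was 57810 CPM in AM132 library 8, with the next at 47540. On the low side, miR-143-3p was 6727 CPM in AM132 library 5, with the next at 8314, and miR-126a-5p was 700.9 CPM in AM608 library 1, with the next at 791.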

How the results depend on the processing

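Each result was computed again under other scalings, filters, tools, subsets and omissions; the omissions of 2 libraries together were chosen after seeing the data. Apart from leaving out 1 library, 264 values kept their direction and side of the threshold, 3 counts moved by over 1.5 times, 6 values changed sign, 1 was gained and 7 were lost. With library totals, which shift the median of all tested miRNAs by -0.25 in AM132 against AM608 and -0.19 in AM132 against RCD, AM132 against AM608 gave 91 calls, of them 8 higher, where TMM factors gave 52, of them 17 higher. miR-126a-3p, miR-145a-5p and miR-145a-3p were then -0.174, -0.208 and -0.185, while in AM132 against RCD miR-126a-3p was 0.168 (edgeR adjusted p = 0.204) and miR-143-3p -0.549 (0.0455). With only the 2 groups compared in the fit, AM132 against AM608 gave 87 calls, and miR-126a-3p in AM608 against RCD was 0.248 (0.0502). A mean CPM of at least 10, which leaves 259 miRNAs, gave 94 calls in AM132 against RCD, where all tested miRNAs gave 144. Without RCD libraries 3 and 4, miR-143-5p in AM132 against RCD was -0.38 (0.0632), and the log2 ratio of miR-126a-3p to miR-143-3p in AM608 against RCD was 0.36 (exact permutation test, adjusted p = 0.0924); without RCD libraries 3 and 8 that ratio was 0.366 (0.0899) and miR-126a-5p in AM608 against RCD was 0.0282. Without RCD library 3 and AM132 library 8, miR-126a-3p and miR-145a-5p in AM132 against AM608 were -0.00879 and -0.000198. Except where fewer miRNAs or libraries entered, the cause was not tested.

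With 1 library left out, calls numbered 44 to 64, 112 to 133 and 127 to 154 in AM132/AM608, AM608/RCD and AM132/RCD. miR-126a-3p, at 0.254 to 0.334 and 0.294 to 0.392, and miR-145a-5p, at -0.716 to -0.522 and -0.673 to -0.502, were called in each of the 24 fits in AM608 and AM132 against RCD. In AM132 against AM608 miR-145a-5p ran from -0.0126 to 0.0632 and miR-145a-3p from -0.0215 to 0.106, both negative without AM608 library 2. miR-126a-5p ran from -0.272 to 0.126 in AM608 and from -0.336 to 0.0576 in AM132 against RCD. Log2 ratios in AM608 against RCD ran from 0.381 to 0.558 for miR-126a-3p to miR-143-3p, 0.347 to 0.595 for miR-145a-3p to miR-145a-5p, 0.341 to 0.477 for miR-143-3p to miR-145a-5p and -0.118 to 0.0266 for miR-143-5p to miR-143-3p (positive without RCD library 4). The ratio of miR-145a-3p to miR-145a-5p ran from 0.371 to 0.619 in AM132 against RCD and from -0.0203 to 0.0931 in AM132 against AM608, negative there without AM132 library 1, 2 or 7 or AM608 library 2 or 4.

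Groups share the replicate numbers of their titles, but nothing says that a number marks a shared animal or batch, and 2, 5 and 3 of the 8 same-numbered pairs correlated above 0.1, with 1, 1 and 2 libraries most like their own number. With a replicate block the calls numbered 47, 109 and 132, and no call on the 6 arms changed. The sign-flip test of same-numbered pairs, whose smallest p is 0.00781 before adjustment, gave the log2 ratio of miR-126a-3p to miR-143-3p as 0.489 and 0.617 against RCD, both with an exact adjusted p of 0.0879. Depth limits only miR-143-5p, with 79 to 347 counts; leaving out a library moved its AM132 against RCD change between -0.671 and -0.484.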

Other observations

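The remaining lists were read as a picture of the other cells of the liver. Of 6 hepatocyte miRNAs 3 rose and 0 fell in AM132 against RCD (15.4% of tested miRNAs were higher), miR-192-5p, miR-194-5p and miR-802-5p. In AM608 against RCD miR-802-5p rose and miR-122-3p fell (13.5% higher and 15.2% lower). In AM132 against AM608 miR-192-5p alone was called, higher by 0.58 (SE 0.12, edgeR adjusted p = 0.000816), where 4.04% of tested miRNAs were higher. Of the 6, 5 had an edgeR unadjusted p under 0.05, a threshold at which the share over all tested miRNAs was not counted. The median of the 6 hepatocyte miRNAs was 0.42 against 0.05 over all tested miRNAs. Their summed level had a median of 544400 CPM in AM132, of 393100 in AM608 and of 455400 in RCD, with overlapping ranges. Of 5 biliary miRNAs, miR-429-3p fell in AM132 against AM608 (8.31% of tested miRNAs were lower) and miR-200c-3p rose in AM608 against RCD (13.5% were higher). Of the 4 tested leukocyte miRNAs edgeR called 0 in each comparison, with 0, 1 and 2 at an unadjusted p under 0.05 in AM132/AM608, AM608/RCD and AM132/RCD, limma voom called 0 in each, DESeq2 called 1 lower in each comparison with RCD and 0 in the other, and the 6 listed ones summed to between 3495 and 6690 CPM over the 24 libraries. Of the 3 tested erythroid miRNAs edgeR called 0 in each comparison, with 0, 2 and 1 at an unadjusted p under 0.05. By limma voom 0 were called in each, and DESeq2 called 1 lower in AM132 against RCD and 0 in the others. Over all tested miRNAs edgeR called 12.4% in AM132/AM608, 28.7% in AM608/RCD and 34.2% in AM132/RCD. DESeq2 called 16.6% lower in AM608/RCD and 18.5% lower in AM132/RCD. The share at an unadjusted p under 0.05 was not counted, so the leukocyte and erythroid counts are not read as a result about these cells. miR-145b, a relative of miR-145a, had at most 1 count in a library.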
